A study of Homo sapiens with 6 samples.

Results

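The genes described here encode the subunits of the transcription factor NF-kappaB and the best known inhibitors and adaptors that NF-kappaB itself switches on: NFKB1, NFKB2, REL, RELA, RELB, NFKBIA, NFKBIE, TNFAIP3, TRAF1 and BIRC3. They were chosen by name, with earlier results of these data known. Their probe sets were all those that the array's annotation gives to 1 of these symbols alone. That rule found 19 probe sets for 9 of the 10 genes, out of 41091 single-gene probe sets for 19775 genes in all. BIRC3 had none and is not analysed here. RNA was measured on 6 Affymetrix arrays in KARPAS-422 and Pfeiffer, established human B-cell lines derived from diffuse large B-cell lymphoma. Cells were infected with a lentiviral hairpin, in one arm directed at the histone methyltransferase gene EZH2 (shEZH2), in the other at a sequence that mammals lack (shNTC), and the labels give the treatment as 10 days. For KARPAS-422 each arm comprised 2 arrays, which the labels call biological replicates, whereas Pfeiffer had a single array in each arm. All cells, controls included, were exposed to virus, polybrene and puromycin, and 1 hairpin sequence per arm was used, so effects of that sequence other than on EZH2 cannot be told apart from loss of EZH2. The labels do not say whether replicates came from separate infections, so a p-value here reflects nothing but how far these arrays lay apart, which may be technical.

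NF-kappaB acts as pairs of subunits. RELA, REL and RELB carry activation domains, while NFKB1 and NFKB2 encode precursors that are cut to the partner subunits and that otherwise hold the pairs in the cytoplasm. In resting cells the inhibitors encoded by NFKBIA and NFKBIE bind the pairs. Signals from the B cell antigen receptor, CD40 and Toll-like receptors lead to destruction of the inhibitors, and the freed factor enters the nucleus and switches on, among others, the genes of its own inhibitors. TNFAIP3 encodes A20, a ubiquitin-editing enzyme that shuts the pathway off and is often lost in B-cell lymphomas, and TRAF1 encodes an adaptor of TNF receptors.

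The hairpins define the arms, and their inserts are shown with both stem strands in capitals, as the labels give them.
shControl: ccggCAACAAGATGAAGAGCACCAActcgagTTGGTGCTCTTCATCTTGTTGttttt
shEZH2: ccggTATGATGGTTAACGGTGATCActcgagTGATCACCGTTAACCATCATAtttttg
Each stem is 21 bases long.

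The promoters are shown because NF-kappaB genes are textbook examples of genes that the factor itself regulates, and because several of them stood together in the comparison of lines. RefSeq windows of 250 bases before an annotated start (GRCh38.p14) were matched by symbol for 8 of the 10 genes, all but NFKBIE and RELB, with 14 windows in total. The 10-base kappaB consensus was searched on both strands, and overlapping matches were counted as they came. It was found in 7 of the 14 windows and for 6 of these 8 genes: REL, NFKB1, NFKB2, NFKBIA, TNFAIP3 and BIRC3. RELA and TRAF1 had no match in their windows. Over all 27305 genes in the table, 11.8% had a match in at least 1 window, and 9.96% of the 35116 windows had one. A match is a description of the letters only. In the windows below, written 5′ to 3′ on the strand of the gene, capitals mark the matches.
NFKBIA, chr14:35404750-35404999, minus strand: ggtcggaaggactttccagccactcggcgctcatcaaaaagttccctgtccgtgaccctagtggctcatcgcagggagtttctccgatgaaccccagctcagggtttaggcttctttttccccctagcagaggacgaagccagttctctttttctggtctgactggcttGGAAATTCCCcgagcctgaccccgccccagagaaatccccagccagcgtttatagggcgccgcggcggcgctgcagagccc
TNFAIP3, chr6:137867009-137867258, plus strand: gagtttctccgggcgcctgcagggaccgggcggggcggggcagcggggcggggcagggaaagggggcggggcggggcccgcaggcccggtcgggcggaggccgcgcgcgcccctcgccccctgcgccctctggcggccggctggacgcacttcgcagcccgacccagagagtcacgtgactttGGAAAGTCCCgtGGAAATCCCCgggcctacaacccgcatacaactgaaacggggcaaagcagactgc
REL, chr2:60881324-60881573, plus strand: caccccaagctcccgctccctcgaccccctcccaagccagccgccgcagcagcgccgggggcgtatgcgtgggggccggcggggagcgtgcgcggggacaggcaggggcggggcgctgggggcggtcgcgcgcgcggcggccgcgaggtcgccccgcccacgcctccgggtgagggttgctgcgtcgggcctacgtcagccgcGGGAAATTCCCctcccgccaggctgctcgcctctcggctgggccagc
NFKB1, chr4:102501109-102501358, plus strand: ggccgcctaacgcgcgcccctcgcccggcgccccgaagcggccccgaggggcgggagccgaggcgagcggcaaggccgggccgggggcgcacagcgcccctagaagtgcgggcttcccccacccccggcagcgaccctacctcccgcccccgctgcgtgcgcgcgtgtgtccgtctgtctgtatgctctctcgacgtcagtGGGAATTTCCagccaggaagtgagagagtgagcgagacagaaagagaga
RELA, chr11:65663858-65664107, minus strand: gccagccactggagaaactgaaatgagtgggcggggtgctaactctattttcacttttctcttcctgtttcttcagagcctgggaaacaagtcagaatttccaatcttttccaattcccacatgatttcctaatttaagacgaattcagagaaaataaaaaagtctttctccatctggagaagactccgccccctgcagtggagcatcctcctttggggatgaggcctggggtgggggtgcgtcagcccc
NFKBIA had 1 match, 81 to 72 bases before the start, and TNFAIP3 had 2, at 67 to 58 and 55 to 46 bases. The NFKB1 match lay 49 to 40 bases before the start. The REL match read as the consensus on both strands, from 47 to 37 bases before the start.

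All levels below are MAS5 signals on a log2 scale, on which 1 unit of difference is a 2-fold change. EZH2 itself read 11.71 and 11.57 with shNTC against 10.52 and 10.55 with shEZH2 in KARPAS-422 (difference -1.11, limma adjusted p = 7.73e-04), and 11.65 against 10.24 in Pfeiffer. All 5 B cell markers with a probe set (MS4A1, CD79A, CD79B, PAX5 and CD22) lay above the median of all values (6.21) on all 6 arrays. Of 7 T and NK cell markers none did so, although CD3D and CD3G read 10.53 to 12.08 in KARPAS-422 and CD8A 13.49 and 13.60 in Pfeiffer. With shEZH2 in KARPAS-422, CD3D fell by 0.77 (limma adjusted p = 0.00943) and CD3G fell by 0.64 (limma adjusted p = 0.0418), while the B cell gene CD79B rose by 0.39 (limma adjusted p = 0.0168). The other T and NK cell and B cell markers tested did not pass and had both signs. CD8A differed by 0.54 and CD3E by -0.28, and CD22 by 0.78, PAX5 by 0.28, MS4A1 by 0.05 and CD79A by -0.09. The part of these shifts in the knockdown results was not tested. None of 5 myeloid markers and 2 of 7 fibroblast and epithelial markers, COL1A1 and DCN, were above it on all arrays, with DCN at 13.43 to 13.71 in KARPAS-422, while EPCAM read 13.33 and 12.98 in Pfeiffer. The 3′ minus 5′ log2 signal of the ACTB control probe sets, a sign of RNA quality, was 0.0593 and 0.0830 on the shNTC arrays of KARPAS-422 and 0.138 and 0.175 on its shEZH2 arrays, and its part in the results was not tested.

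The largest differences among the NF-kappaB genes were between the lines, not between the hairpins. REL, RELB and TNFAIP3 read about 9 times higher in Pfeiffer than in KARPAS-422, and NFKB1, NFKB2 and NFKBIA about 4 to 5 times, while RELA was nearly level. For each of the 9 genes both Pfeiffer arrays lay above all 4 KARPAS-422 arrays, which was true of 31.7% of the 13036 genes tested. In the control arms 7 of the 9 genes were lower in KARPAS-422 by limma (adjusted p under 0.05), against 22.5% of all genes, and 0 were higher, against 21.7%. All 9 genes reached the median of all values in both lines. The shares of all genes also hold genes that did so in 1 line alone, so they are not a like measure. The median difference over the 9 genes was -2.13, and over all genes -0.01. This comparison rests on 2 shNTC arrays of KARPAS-422 and 1 of Pfeiffer, which is assumed to vary like the others. In bulk RNA fewer cells that express a gene and less RNA per cell cannot be told apart.

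**Figure D1:**
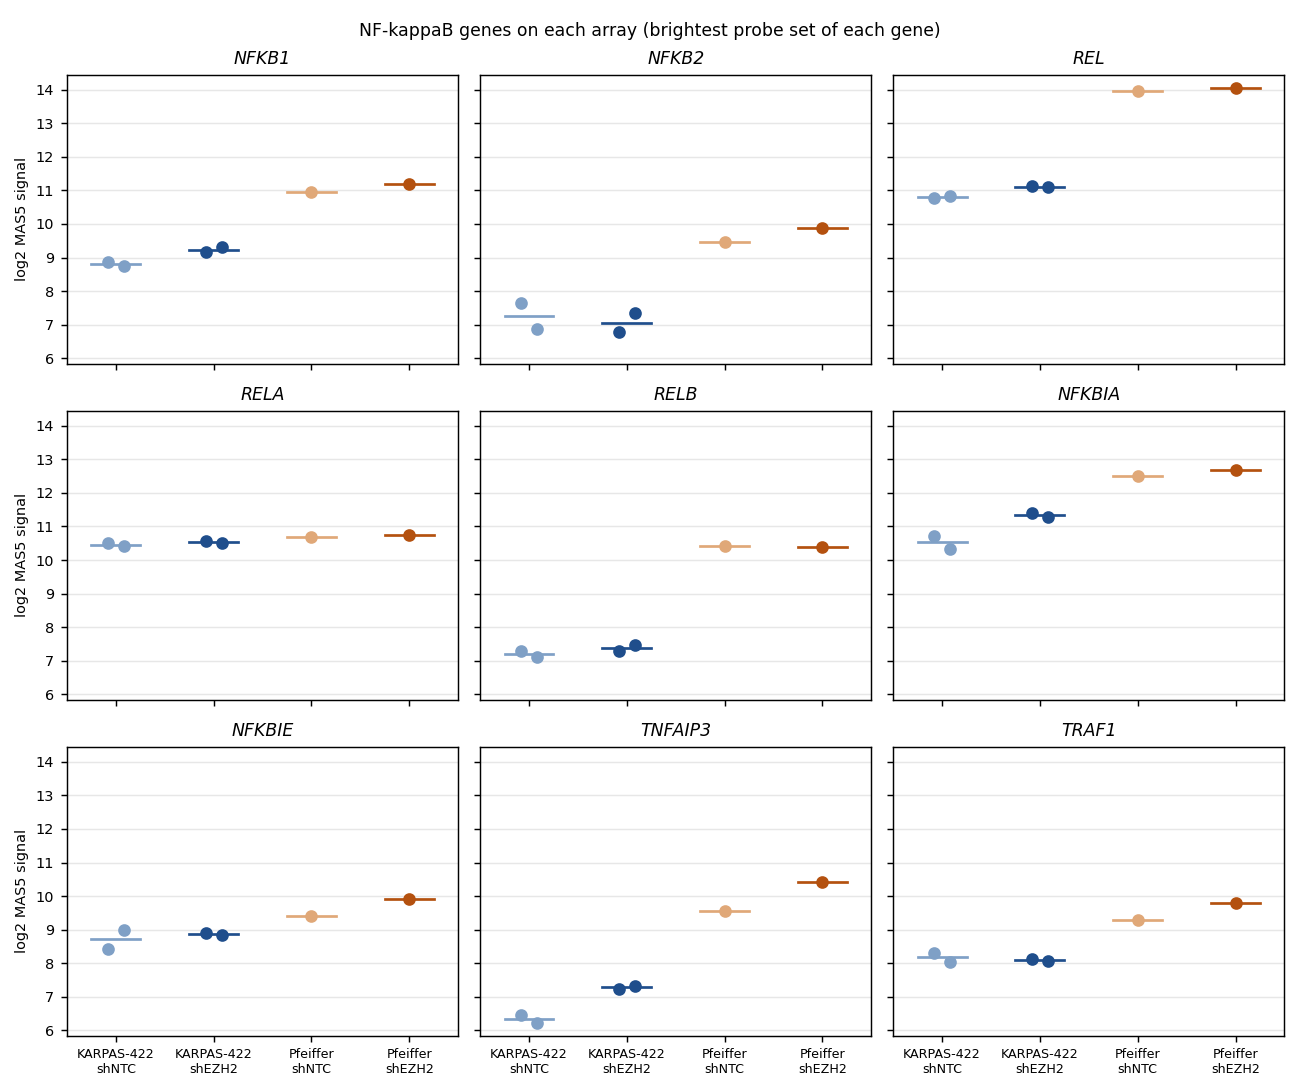
Log2 MAS5 signal of the brightest kept probe set of each NF-kappaB gene on each array (y axis, 1 panel per gene), by line and hairpin (x axis); points are arrays, short lines are group means, with 2 arrays per KARPAS-422 group and 1 per Pfeiffer group. The Pfeiffer points lie above the KARPAS-422 points in every panel, by about 3 units for REL, RELB and TNFAIP3 and by 0.22 in the control arms for RELA.

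Among the activating subunits, REL, the subunit typical of mature B cells, read 10.77 and 10.83 in KARPAS-422 with shNTC, 11.12 and 11.09 with shEZH2, and 13.97 and 14.06 in Pfeiffer with shNTC and shEZH2. The control-arm difference of KARPAS-422 minus Pfeiffer was -3.17 (SE 0.10, limma adjusted p = 7.675e-07), a 9.01-fold higher signal in Pfeiffer. All 5 REL probe sets showed this, with differences from -3.96 to -2.89. Tested singly, 13 of the 17 kept member probe sets were called lower in KARPAS-422, against 21.7% of all kept probe sets, and 0 higher, against 20.4%. One of the 13, an NFKB2 probe set at 4.57 to 6.11 in KARPAS-422, passed the filter through the Pfeiffer arrays alone, so its call carries no weight, and an NFKB2 probe set that did not pass the filter differed by 0.26. RELB, the activating partner in the non-canonical branch, read 7.30 and 7.11 with shNTC and 7.29 and 7.48 with shEZH2 in KARPAS-422, against 10.41 and 10.37 in Pfeiffer. Its difference was -3.21 (SE 0.22, adjusted p = 2.86e-05). RELA, the subunit found in most cell types, read 10.49 and 10.42 with shNTC and 10.57 and 10.49 with shEZH2 in KARPAS-422, and 10.68 and 10.75 in Pfeiffer. Although its groups did not overlap between lines on the brighter probe set, the difference of -0.22 (SE 0.13) did not pass (adjusted p = 0.205), and on the second RELA probe set the lines overlapped.

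The genes of the precursor subunits were also lower in KARPAS-422. NFKB1 read 8.86 and 8.76 with shNTC and 9.15 and 9.30 with shEZH2 in KARPAS-422, against 10.94 and 11.18 in Pfeiffer, a control-arm difference of -2.13 (SE 0.16, adjusted p = 4.37e-05). NFKB2, whose precursor is processed in the non-canonical branch, read 7.64 and 6.87 with shNTC and 6.77 and 7.34 with shEZH2, against 9.48 and 9.89. That difference was -2.22 (SE 0.38, adjusted p = 0.00255). The KARPAS-422 replicates of NFKB2 were further apart (SD 0.54 with shNTC) than those of REL (SD 0.04).

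**Figure D2:**
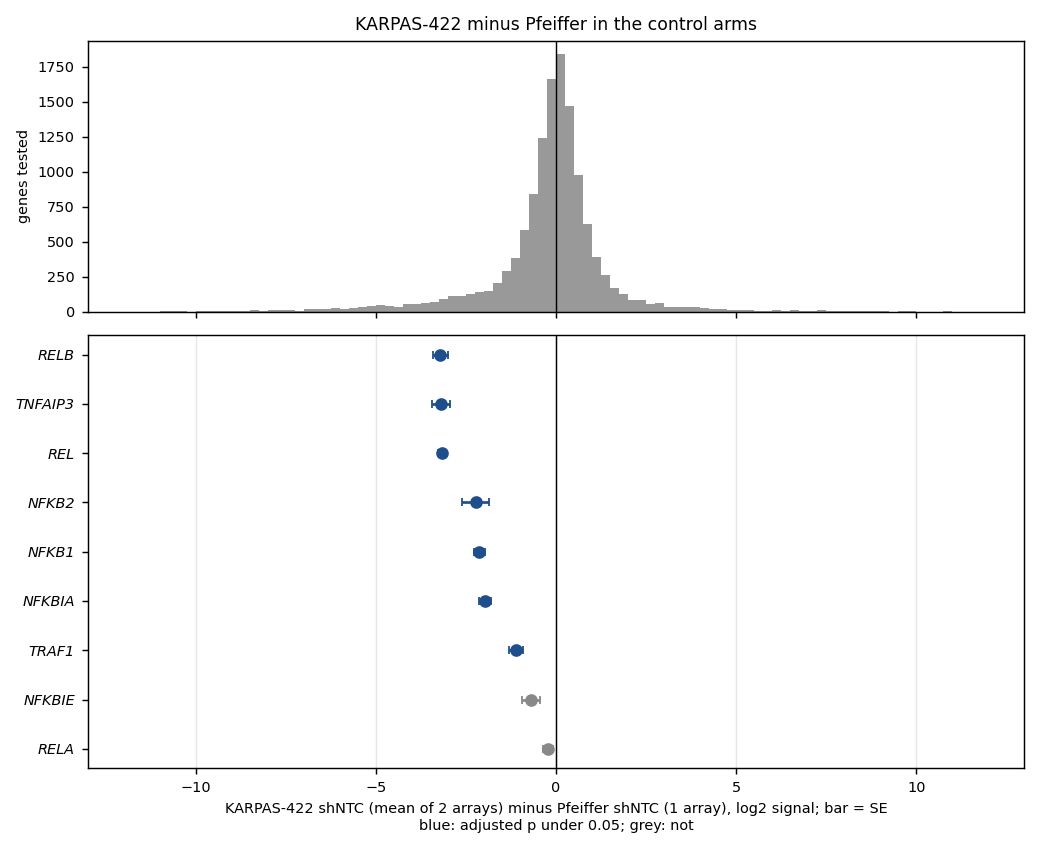
Top: number of the 13036 genes tested (y axis) by log2 difference between KARPAS-422 and Pfeiffer in the shNTC arms (x axis). Bottom: the same difference for each NF-kappaB gene with its limma standard error; blue points passed and the grey ones, NFKBIE and RELA, did not, and all 9 points lie to the left of 0.

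The inhibitors and feedback genes differed to unequal extents. TNFAIP3 read 6.46 and 6.23 with shNTC and 7.24 and 7.31 with shEZH2 in KARPAS-422, against 9.54 with shNTC and 10.41 with shEZH2 in Pfeiffer, a control-arm difference of -3.19 (SE 0.24, adjusted p = 5.01e-05). NFKBIA, the main inhibitor of RELA and REL pairs, read 10.73 and 10.32 with shNTC and 11.39 and 11.28 with shEZH2, against 12.49 and 12.68. Its difference was -1.97 (SE 0.17, adjusted p = 1.07e-04). TRAF1 read 8.32 and 8.05 with shNTC and 8.13 and 8.05 with shEZH2, against 9.29 and 9.80, a difference of -1.11 (SE 0.20, adjusted p = 0.00382). The dimmer TRAF1 probe set, 235116_at, differed by -1.28 and did not pass in limma when probe sets were tested singly (adjusted p = 0.0681). NFKBIE, a second inhibitor of the same kind, read 8.42 and 9.00 with shNTC and 8.92 and 8.85 with shEZH2, against 9.39 and 9.92. Its difference of -0.68 (SE 0.25) did not pass (adjusted p = 0.0605), and the KARPAS-422 controls pulled it both ways: it was -0.97 without shNTC replicate 2 (adjusted p = 0.00366) and -0.39 without shNTC replicate 1 (adjusted p = 0.145). With all 6 arrays required above the median it passed (adjusted p = 0.0462). The 7 genes called in this comparison were called under every alternative that measured them. For NFKB2, however, the alternative without _x_at and _s_at probe sets used 209636_at, at -1.72. That probe set passed the filter through the Pfeiffer arrays alone, so its call there carries no weight. None of these alternatives left out the single Pfeiffer shNTC array, so they cannot show how far the calls depend on it.

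With EZH2 knockdown in KARPAS-422, the feedback genes TNFAIP3 and NFKBIA rose by 1.90-fold and 1.76-fold and REL by 1.24-fold, while RELA, RELB, NFKB2, NFKBIE and TRAF1 did not pass. In limma 3 of the 9 genes were called higher, against 13.1% of all genes, and 0 lower, against 12.3%. At an unadjusted p under 0.05 there were 4 higher, the fourth being NFKB1, and 0 lower. The median difference over the 9 genes was 0.18, against -0.02 over all genes. Both shEZH2 arrays lay above both shNTC arrays for 5 genes (NFKB1, REL, RELA, NFKBIA and TNFAIP3), against 31.8% of all genes, and below for 0, against 33.9%. RELA was barely apart, with shEZH2 replicate 2 at 10.4948 and shNTC replicate 1 at 10.4936.

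TNFAIP3 differed by 0.93 in KARPAS-422 (SE 0.20, n = 2 per arm, adjusted p = 0.0146), a 1.90-fold increase. NFKBIA differed by 0.81 (SE 0.14, n = 2 per arm, adjusted p = 0.00784), a 1.76-fold increase. REL differed by 0.31 (SE 0.08, n = 2 per arm, adjusted p = 0.0338), a 1.24-fold increase. NFKB1, at 0.42 (SE 0.13), lay just past the threshold (adjusted p = 0.0502) and did not pass, although it did with all 6 arrays required above the median (adjusted p = 0.0422) or with the mean of kept probe sets (adjusted p = 0.0404). Of the rest, RELB differed by 0.18 (SE 0.18), NFKBIE by 0.17 (SE 0.20), RELA by 0.07 (SE 0.10), TRAF1 by -0.09 (SE 0.17) and NFKB2 by -0.20 (SE 0.31), with adjusted p from 0.484 to 0.725. Without KARPAS-422 shEZH2 replicate 1 or without shEZH2 replicate 2 the count of higher genes fell from 3 to 0: the adjusted p was then 0.0751 or 0.0603 for NFKBIA, 0.0785 or 0.0945 for TNFAIP3 and 0.121 or 0.105 for REL. REL also lost its call when either shNTC array was left out (adjusted p = 0.135 for the first, 0.075 for the second). When the variance trend was dropped from limma, TNFAIP3 alone was called (adjusted p = 0.0815 for NFKBIA and 0.138 for REL). REL did not pass after median centring (adjusted p = 0.0719) or without the filter on dim probe sets (adjusted p = 0.052) either, and with 64 added to each linear signal the TNFAIP3 difference was 0.59.

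The probe sets of a gene did not all move alike. Of the 17 kept member probe sets, 4 were called higher in KARPAS-422 when probe sets were tested singly, against 12.4% of all kept probe sets, and 0 lower, against 9.1%; at an unadjusted p under 0.05 limma called 0 of the 17 lower. For REL, probe set 228812_at read 10.03 and 10.08 with shNTC and 10.76 and 10.84 with shEZH2, a difference of 0.75 (SE 0.09, adjusted p = 0.00299). That is more than the 0.31 of the brightest probe set, 235242_at. The other 3 REL probe sets differed by 0.14 (206036_s_at), 0.09 (206035_at) and 0.05 (239486_at) and did not pass. With the mean of the 5 probe sets REL differed by 0.27 and did not pass (adjusted p = 0.122). The second TNFAIP3 probe set, 202643_s_at, read 5.76 and 6.14 with shNTC and 6.55 and 6.60 with shEZH2, so the arms did not overlap, but the difference of 0.62 (SE 0.25) did not pass (adjusted p = 0.121). NFKBIA was read by 1 kept probe set, since the other, 231699_at, stayed at 5.20 to 5.85 on all arrays, under the median of all values. On its dimmer kept probe set, 209636_at, NFKB2 read 5.35 and 6.11 with shNTC and 5.27 and 4.57 with shEZH2, a difference of -0.81 (SE 0.44, adjusted p = 0.228). The TRAF1 probe sets had opposite signs, at -0.09 on 205599_at and 0.12 (SE 0.39) on 235116_at, and neither passed.

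**Figure D3:**
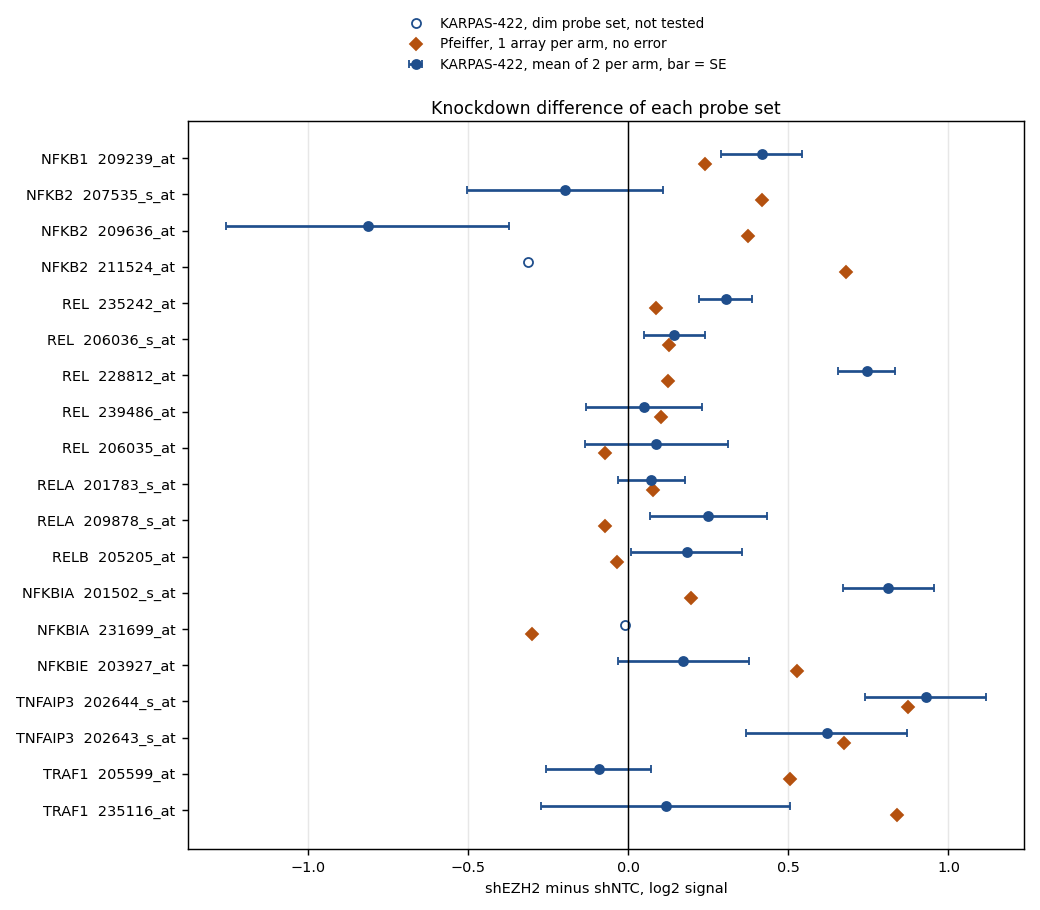
Log2 difference of shEZH2 minus shNTC (x axis) for each of the 19 NF-kappaB probe sets (y axis): circles are KARPAS-422, with the limma standard error for kept probe sets, and diamonds are Pfeiffer, with no error because each arm is 1 array. The 2 TNFAIP3 probe sets lie right of 0 in both lines, by 0.62 to 0.93, while the 5 REL probe sets spread from 0.05 to 0.75 in KARPAS-422.

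In Pfeiffer, with 1 array per arm, the knockdown differences are given without a test. TNFAIP3 had the largest difference of the 9 genes, at 0.87 (1.83-fold), with its second probe set at 0.67. NFKBIE followed at 0.53, TRAF1 at 0.51, NFKB2 at 0.42, NFKB1 at 0.24, NFKBIA at 0.20, REL at 0.09, RELA at 0.08 and RELB at -0.03. None of the 9 genes was past 1 log2 unit in either direction, against 3.23% of all genes higher and 1.48% lower. The signs were positive for 8 of the 9 genes, against 54.6% of all genes. The median over the 9 genes was 0.24, against 0.03 over all genes.

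Over both lines, with a term for the line, 1 of the 9 genes was called: TNFAIP3, at 0.91 (SE 0.17, n = 3 per arm, adjusted p = 0.0343), against 3.76% of all genes higher and 2.46% lower. It was higher with shEZH2 on both KARPAS-422 arrays and in Pfeiffer. Leaving out any single KARPAS-422 array ended this call, with limma adjusted p of 0.102 and 0.131 for shNTC replicates 1 and 2 and of 0.175 and 0.171 for shEZH2 replicates 1 and 2. It also ended without the filter on dim probe sets (limma adjusted p = 0.0518) or without the variance trend (limma adjusted p = 0.118). NFKBIA, at 0.61 (SE 0.16, adjusted p = 0.0604), and NFKB1, at 0.36 (SE 0.12, adjusted p = 0.0957), did not pass. The test of the difference between the lines' knockdown effects called 0 of the 9 genes in limma, against 1.25% of all genes higher in KARPAS-422 and 0.453% lower, and 1 of the 9, NFKBIA, had an unadjusted p under 0.05. For NFKBIA that difference was 0.62 (SE 0.25, adjusted p = 0.260), and for TNFAIP3 0.06 (SE 0.34, adjusted p = 0.958). With shEZH2 in both lines, Pfeiffer still read 2.55 times the KARPAS-422 signal for NFKBIA, against 3.91 times with shNTC, and 8.79 times for TNFAIP3, against 9.14 times. The TNFAIP3 sizes are uncertain, since its signal in KARPAS-422 with shNTC was low.

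Genes upstream and downstream of the subunits were taken from lists of receptors, signalling proteins, other inhibitors and known targets. The lists were written with earlier results of these data known, so their counts and medians are descriptions, and no list was tested. Of 10 receptor genes tested, 2 rose in KARPAS-422 and 0 fell, with a median of 0.48, against 13.1% of all genes higher and 12.3% lower. They were CD40, the receptor for T cell help, at 1.14 (SE 0.11, adjusted p = 9.88e-04), and TLR7, a sensor of single-stranded RNA, at 3.40 (SE 0.62, adjusted p = 0.00902). TLR7 read 7.87 and 5.75 on the shNTC arrays, so its size is uncertain, and its call was lost without either shEZH2 array (adjusted p = 0.0820 and 0.0996). Of 21 signalling genes, 7 rose and 0 fell, with a median of 0.29, and 3 to 8 rose when 1 array was left out, again against 13.1% and 12.3%. PRKCB, the kinase that couples the antigen receptor to NF-kappaB, rose by 2.36 (SE 0.19), MAP3K14, the kinase of the non-canonical branch, by 1.26 (SE 0.20), the Toll-like receptor adaptor MYD88 by 1.07 (SE 0.10) and IKBKB, a kinase of the inhibitor proteins, by 0.99 (SE 0.15). IKBKB probe sets ranged from -0.17 to 0.99, and its mean over them did not pass (0.39, adjusted p = 0.107). The calls of MAP3K14 (adjusted p = 0.0594 and 0.0558) and IKBKB (adjusted p = 0.0540 and 0.0561) were lost without shEZH2 replicate 1 or 2.

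Among 12 other inhibitors, 3 rose and 2 fell in KARPAS-422, with a median of 0.11, against the same 13.1% and 12.3%. NFKBIZ, an atypical nuclear member of the inhibitor family, rose by 1.92 (SE 0.13), the deubiquitinase gene CYLD by 1.38 (SE 0.12) and RNF11, a partner of A20, by 1.04 (SE 0.13), the last not called without the variance trend (adjusted p = 0.0516). ITCH, at -0.46 (SE 0.12), and NFKBIB, at -0.43 (SE 0.13), were lower on their brightest probe sets, but their kept probe sets ranged from -0.67 to 0.92 and from -0.43 to 0.22, and both calls were lost without any 1 of the 4 KARPAS-422 arrays (adjusted p from 0.0597 to 0.183). CYLD's 6 kept probe sets ranged from 0.16 to 2.27. Of 26 targets, 3 rose and 2 fell, with a median of -0.05, which is near the all-gene shares of 13.1% and 12.3%. The survival gene BCL2A1 rose by 2.04 (SE 0.19), the activation marker CD83 by 0.76 (SE 0.13) and the lymphotoxin gene LTB by 0.35 (SE 0.08), while LTA fell by 0.64 (SE 0.14) and the mitochondrial superoxide dismutase gene SOD2 fell by 0.70 (SE 0.19). BCL2A1 read 5.82 and 5.33 on the shNTC arrays, under the median of all values, so its size is uncertain. With 64 added to each linear signal its difference was 1.22. LTB read -0.40 on its other probe set and lost its call without any 1 of the 4 arrays (adjusted p from 0.0559 to 0.109). LTA (adjusted p = 0.115 and 0.0827) and SOD2 (adjusted p = 0.178 and 0.0553) lost theirs without shEZH2 replicate 1 or 2, LTA also without shNTC replicate 1 (adjusted p = 0.0578), SOD2 without shNTC replicate 2 (adjusted p = 0.0896), and CD83 without shEZH2 replicate 2 (adjusted p = 0.0557).

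**Figure D4:**
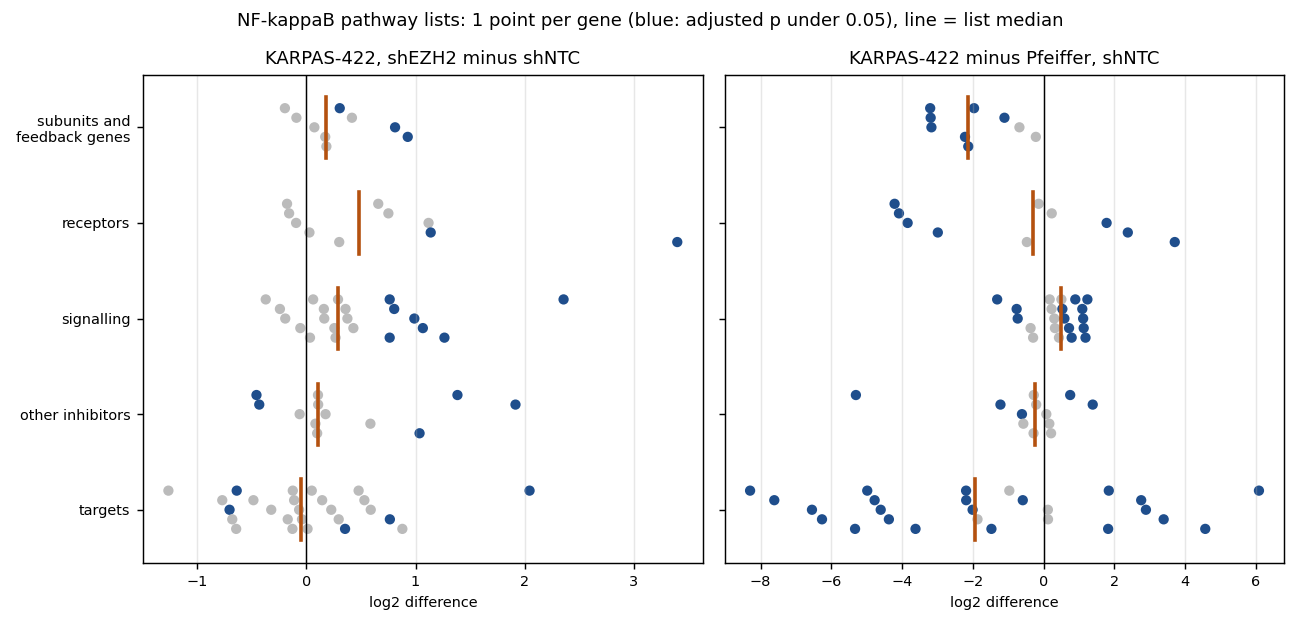
Log2 differences (x axis) of the NF-kappaB genes and the 4 pathway lists (y axis), 1 point per gene, blue where limma's adjusted p was under 0.05, with the list median as a line; left, knockdown in KARPAS-422, and right, KARPAS-422 minus Pfeiffer in the control arms. The subunits and feedback genes lie left of 0 between lines (median -2.13), while the targets spread to both sides; the right panel includes genes that passed the filter through 1 line alone.

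In the control arms the filter itself favours a difference between lines, since a gene bright in 1 line alone passes it. Of 26 targets, 7 passed through Pfeiffer alone and 19 reached the median on at least 1 array of each line, with either hairpin. Of these 19, 9 were lower and 7 higher in KARPAS-422, beside 22.5% and 21.7% of all genes tested. Those shares also hold genes that passed through 1 line alone, so they are not a like measure. BCL2A1 in KARPAS-422 and LTA in Pfeiffer reached the median with shEZH2 alone. BCL2A1, which in the control arms read 5.82 and 5.33 in KARPAS-422 and 13.19 in Pfeiffer, differed by -7.61, CD83 by -6.26 and LTB by -2.19. LTA went the other way, with 11.06 and 10.96 in KARPAS-422 against 4.92 in Pfeiffer, a difference of 6.09, and SOD2 differed by 1.84. Each of these 5 passed, with the highest adjusted p at 6.05e-04 for SOD2. The dim signals of BCL2A1 and LTA make the sizes uncertain. The 12 other inhibitors all reached the median in both lines, and 3 were lower and 2 higher, with NFKBIZ at -5.31. Of 7 receptors that did so 2 were lower and 2 higher, with CD40 at -2.99. TLR7 read 3.11 and 4.12 in Pfeiffer, under the median, so no size is given for it. Of 20 such signalling genes 3 were lower and 9 higher in KARPAS-422.

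The genes whose signal followed that of NFKBIA most closely over the 6 arrays were STARD10 (Pearson r = 0.999), TCF4 (r = 0.997) and FAM193B (r = 0.996). For TNFAIP3 they were PRKCI (r = 0.9996), AMT (r = 0.9995) and APPBP2 (r = 0.998). With so few arrays such values are common: 561 genes reached r of 0.95 with NFKBIA and 887 with TNFAIP3, and the points share the gap between the lines.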

How the data were processed

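Per the submitters' processing notes, the authors used MAS5 (no version given), and the deposited table holds log2 signals; the log base was read from the values, since the linear signals have a 2% trimmed mean of 500 on every array. Detection calls and scan dates were not used here, so no batch could be tested. Probe sets were named from GEO's platform annotation. Probe sets were kept where at least 2 of 6 arrays exceeded the median of all values (6.21), and each gene was represented by whichever kept probe set was brightest on average, giving 13036 genes from 25186 probe sets. Tests used limma 3.58.1 in R 4.3.3 (eBayes with an intensity trend, two-sided, Benjamini-Hochberg over all genes tested, threshold 0.05). The 4-group model over all 6 arrays had 2 residual and 5.24 prior degrees of freedom. The both-line model had 3 and 4.72. No pseudocount was added.

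The members and lists were chosen with earlier results of these data known. From each pathway list up to 4 called genes per direction with the largest KARPAS-422 difference are named, and for NFKBIA and TNFAIP3 the 3 genes most alike. Same-numbered KARPAS-422 arrays did not deviate together (r = 0.00651), so the replicate number was not used as a pairing. The number of arrays limits the precision. The scripts were tested on simulated data.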

Additional observations from a re-analysis of the deposited data

Results flagged for a closer look

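Of 43 genes named above and tested for a difference between the lines' knockdown effects, 5 passed, and none of the 5 is a subunit or feedback gene. Of all genes, 1.25% were higher in KARPAS-422 and 0.453% lower. The genes from the pathway lists were named for a large KARPAS-422 difference, which is itself part of this contrast. An excess over the shares of all genes was therefore built in, and the count says nothing about it. Without KARPAS-422 shEZH2 replicate 1 or without shEZH2 replicate 2 limma called 0 genes of all those tested, so each of these calls was lost. For PRKCB the KARPAS-422 effect exceeded that in Pfeiffer by 2.14 (SE 0.32, limma adjusted p = 0.0247): shEZH2 differed from shNTC by 2.36 in KARPAS-422 and by 0.22 in Pfeiffer. For NFKBIZ the excess was 1.31 (SE 0.23, limma adjusted p = 0.0465), with effects of 1.92 and 0.61. For LTA it was -3.07 (SE 0.24, limma adjusted p = 0.00393), with -0.64 in KARPAS-422 and 2.43 in Pfeiffer, where the shNTC signal was dim at 4.92. For the B cell markers CD79A and CD79B it was -1.05 (SE 0.16, limma adjusted p = 0.0271), with -0.091 and 0.95, and 0.82 (SE 0.15, limma adjusted p = 0.047), with 0.39 and -0.43. Each Pfeiffer arm is 1 array, assumed to vary like the KARPAS-422 arrays.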

How the results depend on the processing

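The 7 members lower in KARPAS-422 than in Pfeiffer were called under every alternative that measured them, none of which left out the single Pfeiffer shNTC array. Without _x_at and _s_at probe sets, NFKB2 was read by a probe set that passed the filter through Pfeiffer alone, so that call carries no weight. Median centring shifted the median line difference of all genes from -0.01 to 0.20 and the all-gene split from 2832 higher and 2932 lower to 3878 and 2375. In KARPAS-422, 3 members were higher in the reported fit, 1 without the intensity trend, 1 without _x_at and _s_at probe sets (which leaves NFKBIA, TNFAIP3 and RELA unmeasured) and 0 to 2 when an array was left out. All genes there (1702 higher, 1603 lower) became 586 and 134 without the trend, and 901 were lower without _x_at and _s_at probe sets. Leaving out an array gave 539 to 1649 higher and 418 to 1113 lower. Member probe sets higher fell from 4 to 0 without the trend and to between 1 and 3 without an array. Over both lines, members higher went from 1 to 0 without a filter, without _x_at and _s_at probe sets, without the trend, with the replicate block or without an array (0 to 0), and to 2 with all 6 arrays above the median. All genes over both lines (490 higher, 321 lower) became 463 and 1031 after median centring, 203 and 99 without a filter, 785 and 651 with all 6 above the median, 350 and 151 without _x_at and _s_at probe sets, 0 and 0 without the trend, 9 and 2 with the replicate block, and 0 to 15 higher and 0 to 2 lower without an array. For the difference between lines (163 higher, 59 lower) they were 94 and 20 without a filter, 1 and 0 without the trend, 222 and 156 with the replicate block, 0 to 345 and 0 to 128 without an array, and 37 or 30 lower with 64 added or with mean probe sets. The causes were not tested.

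The sign turned in these cases, of which 0 were called after turning. In KARPAS-422, after quantile normalization RELB was -0.028 and NFKBIE -0.019. With mean probe sets TRAF1 was 0.013, ITCH 0.16 and LTB -0.022, and without _x_at and _s_at probe sets ITCH was 0.52, NFKBIB 0.22 and LTB -0.40. Without an array NFKB2 ranged from -0.58 to 0.19, NFKBIE from -0.12 to 0.46 and TRAF1 from -0.23 to 0.042. Over both lines, after quantile normalization NFKB2 was -0.11, RELB -0.030 and TRAF1 -0.044, after median centring NFKB2 was -0.071 and RELA -0.0043, after cyclic loess NFKB2 was -0.12 and RELB -0.0067, and NFKB2 was -0.20 with mean probe sets and -0.42 without _x_at and _s_at ones. Without an array NFKB2 over both lines ranged from -0.15 to 0.29. For the difference between lines, TNFAIP3 was -0.12 after quantile normalization, -0.031 after cyclic loess and -0.048 or -0.23 with 16 or 64 added, NFKB1 was -0.016 after quantile normalization, and RELA was 0.056 after median centring and 0.16 with mean probe sets. Without an array that difference ranged from -0.059 to 0.17 for TNFAIP3 and from -0.040 to 0.033 for RELA.

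The replicate number did not pair the arrays. With it as a replicate block, all genes in KARPAS-422 became 1776 higher and 1850 lower, and 3 members stayed higher. TNFAIP3 over both lines then had an adjusted p of 0.084 in limma, and NFKBIE between the lines one of 0.0357.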
